A study of Mus musculus with 32 samples.

Results

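RNA was sequenced from mouse embryoid bodies (EBs) that received 100 nM bisphenol F (BPF) and from EBs that received the solvent dimethyl sulfoxide (DMSO) alone, on days 6, 9, 12 and 20 of what the labels call global differentiation. These 4 BPF libraries and 4 DMSO libraries, chosen by their treatment and day labels and paired by day, are 8 of the 32 libraries of the study. All cultures came from J1 embryonic stem cells (ESCs), an established mouse line of strain 129S4/SvJae, so the results are those of 1 line. EBs are floating aggregates in which stem cells differentiate into mixed cell types. For comparison the study also holds EBs of the same days with 100 nM bisphenol A (BPA) or bisphenol S (BPS), and BPF and DMSO libraries of ESCs at day 0, EBs at day 4, EBs at day 8 of the retinoic acid branch (RA EBs) and neural progenitor cultures at day 10 (NPCs). How long a culture had been exposed when it was collected is not given in the sources used here.

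Bisphenols are industrial phenols used in plastics and resins. In BPF a methylene group joins the phenol rings, in BPA a carbon carrying methyl groups and in BPS a sulfonyl group. The compounds are known to bind oestrogen receptors weakly and to act on other nuclear receptors. In EBs, cells leave the pluripotent state and form derivatives of ectoderm, which gives rise to the nervous system and epidermis, of mesoderm, which gives rise to heart, vessels, blood and connective tissue, and of endoderm.

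Each treatment and day was 1 library. Total expected counts (estimated reads per gene summed over genes) were between 9574833 and 10929469 in the 8 libraries, which listed 16485 to 17830 genes each. Levels are given as FPKM (fragments scaled to transcript length and to library size), which can be compared between genes. No treatment was repeated within a day, so BPF and DMSO were compared over the 4 days. The main p-values come from a fit that also holds the BPA and BPS libraries of those days. They rest on how far all these treatments departed from parallel courses over the days, a spread which may be technical. Whether the 4 days of a treatment were separate cultures or samples of 1 continuing culture is not given in the sources used here. The days were treated as independent. If they were samples of 1 culture, the p-values rest on repeated samples and not on replicates. Each day had 1 DMSO library, and a departure of the DMSO cultures from their norm, on 1 day or on all, cannot be told apart from an effect of BPF. The EB label was checked on markers. The stem cell factor Nanog stood at 12.22 FPKM in BPF EBs and 11.67 FPKM in DMSO EBs of day 20, against 500.89 FPKM in BPF ESCs. The neuronal tubulin Tubb3 stood at 459.46 FPKM in BPF EBs and 548.25 FPKM in DMSO EBs of day 20, against 37.40 FPKM in BPF ESCs.

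In EBs with BPF, 16 of 24 transcription factors of heart and mesoderm, 17 of 28 genes of connective tissue matrix, 14 of 20 of epithelium and 10 of 22 of endothelium rose relative to EBs with DMSO. In the other direction 11 of 24 genes of neural progenitors, 19 of 33 of neurons and 8 of 16 of p53 signalling fell. These counts are from the fit to all 16 global EB libraries. In the 8 BPF and DMSO libraries alone, 4 of 18 heart and mesoderm factors, 3 of 28 matrix genes and 0 of 15 endothelial genes rose by edgeR. There 4 of 23 neural progenitor, 7 of 32 neuronal and 0 of 16 p53 genes fell. Of 14872 genes tested in the fit to all 16 libraries, 977 were higher (6.57%) and 884 lower (5.94%) at an adjusted p under 0.05. The higher genes moved further. Their median log2 change was 1.0, with 489 at 1 or more and 201 at 2 or more, whereas the lower genes had a median of -0.46, with 88 at -1 or less and 1 at -2 or less. The exception was the lens crystallin gene Cryaa (-2.75, adjusted p = 0.04), named after its values were seen, which was at 1.73 FPKM in BPF EBs and 11.74 FPKM in DMSO EBs of day 20 and at 0 on the other days. The FPKM difference had the same sign on all 4 days for 1492 of the 1861 called genes and for 3896 of all genes tested (26.2%); the call itself rests on these days. With the 8 BPF and DMSO libraries alone, where 3 residual degrees of freedom were left, 141 of 13883 genes were called (1.02%, 77 higher and 64 lower), and all 141 were among the 1861. The majority of higher calls turned round with RLE size factors (917 higher and 1018 lower). The count fell to 722 without day 9 and to 554 without day 12. It was 1114 without BPF of day 9, 1071 without DMSO of day 12, 935 without BPF of day 12 and 991 without BPF of day 20. In bulk RNA a type of cell that is rarer and a type that holds less RNA per cell cannot be told apart.

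From the called genes that averaged at least 2 FPKM in BPF or DMSO EBs and differed in the same direction on every day, the 14 that rose most and the 14 that fell most are described one after another. RefSeq (GRCm38.p6) promoter windows, 250 bases before to 50 bases after the start, were found for 19 of these 28 genes. They are shown for the 3 highest and the 3 lowest that could be printed, to put the sequence in front of the genes that moved furthest: Pax1 (chr2:147364744-147365043, + strand), Myl7 (chr11:5898733-5899032, - strand) and Cped1 (chr6:21985660-21985959, + strand) were higher, and Epha8 (chr4:136956767-136957066, - strand), Fezf1 (chr6:23248215-23248514, - strand) and Crx (chr7:15879906-15880205, - strand) were lower. Capitals mark matches on either strand to any of 5 motifs. The oestrogen response element was written GGTCANNNTGACC. Nuclear receptors in general are known to bind a core site written AGGTCA. The motif of factors such as Gata4 and Gata6, which act in heart and endoderm, was written GATAA. Otx and Crx factors, which act in forebrain and retina, are known to bind the motif written TAATCC. The CArG box, bound by serum response factor in muscle genes, was the last of the 5.
Pax1: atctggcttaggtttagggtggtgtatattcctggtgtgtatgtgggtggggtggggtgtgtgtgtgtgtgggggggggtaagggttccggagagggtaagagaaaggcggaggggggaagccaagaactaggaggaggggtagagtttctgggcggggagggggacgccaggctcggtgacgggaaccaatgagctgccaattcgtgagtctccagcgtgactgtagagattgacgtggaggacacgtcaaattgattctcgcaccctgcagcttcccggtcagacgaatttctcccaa
Myl7: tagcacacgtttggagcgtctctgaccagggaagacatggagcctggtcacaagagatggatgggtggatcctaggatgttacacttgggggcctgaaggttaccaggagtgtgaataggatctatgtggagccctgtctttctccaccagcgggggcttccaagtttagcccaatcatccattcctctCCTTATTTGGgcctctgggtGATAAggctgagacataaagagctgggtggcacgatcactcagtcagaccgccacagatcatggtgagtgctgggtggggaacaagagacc
Cped1: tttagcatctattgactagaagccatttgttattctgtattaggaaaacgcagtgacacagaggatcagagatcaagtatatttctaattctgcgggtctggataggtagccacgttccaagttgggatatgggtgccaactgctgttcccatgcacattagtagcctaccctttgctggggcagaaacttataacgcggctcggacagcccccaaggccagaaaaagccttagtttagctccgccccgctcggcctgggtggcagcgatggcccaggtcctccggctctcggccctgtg
Epha8: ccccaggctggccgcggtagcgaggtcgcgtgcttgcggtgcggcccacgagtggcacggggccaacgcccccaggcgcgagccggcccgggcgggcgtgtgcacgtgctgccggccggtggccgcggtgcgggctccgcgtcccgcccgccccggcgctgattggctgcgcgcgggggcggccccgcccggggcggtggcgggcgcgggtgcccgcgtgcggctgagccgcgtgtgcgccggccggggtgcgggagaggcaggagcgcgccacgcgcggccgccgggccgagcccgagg
Fezf1: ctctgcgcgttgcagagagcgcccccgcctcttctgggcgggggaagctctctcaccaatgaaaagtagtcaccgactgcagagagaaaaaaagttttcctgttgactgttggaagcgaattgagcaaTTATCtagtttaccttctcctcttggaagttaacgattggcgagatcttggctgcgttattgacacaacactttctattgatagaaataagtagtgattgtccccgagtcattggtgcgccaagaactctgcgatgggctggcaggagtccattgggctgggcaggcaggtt
Crx: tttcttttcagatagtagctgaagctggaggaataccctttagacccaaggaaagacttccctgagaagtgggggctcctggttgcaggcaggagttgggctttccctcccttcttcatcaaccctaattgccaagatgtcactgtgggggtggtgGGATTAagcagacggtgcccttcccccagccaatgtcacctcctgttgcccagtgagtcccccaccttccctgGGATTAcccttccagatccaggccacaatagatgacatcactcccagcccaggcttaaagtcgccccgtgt

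The Myl7 window held 1 GATAA match and 1 CArG box, the Fezf1 window 1 GATAA match and the Crx window 2 TAATCC matches, and none of these motifs was found in the other 3 windows. GATAA was in 21.5% of the windows of called higher genes, 19.6% of those of called lower genes and 28.4% of all 27025 windows in the table. TAATCC was in 7.40% of windows of higher genes, 8.52% of those of lower genes and 8.14% of all windows. The CArG box was in 3.15% of windows of higher genes, 1.94% of those of lower genes and 1.81% of all. AGGTCA was in 16.3% of windows of higher genes, 16.6% of those of lower genes and 18.1% of all, and the oestrogen response element in 0 of the 730 windows of higher genes, 0 of the 669 windows of lower genes and 20 of all windows. Among the 11710 windows of genes tested, AGGTCA was in 14.7%, GATAA in 19%, TAATCC in 6.80%, the CArG box in 1.59% and the oestrogen response element in 2 windows. Matches to different motifs may share letters, as AGGTCA and the oestrogen response element do. A match says only that the letters are present.

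Several of the 14 genes that rose furthest are known from the sclerotome and skeleton, from vessels and from connective tissue. Pax1 (Entrez 18503, GRCm38 chr2:147361930-147375049), a transcription factor of the sclerotome and pharyngeal pouches, was at 0.21, 14.55, 2.07 and 1.67 FPKM in BPF EBs of days 6, 9, 12 and 20 and at 0, 0.04, 0.17 and 0.18 FPKM in DMSO EBs. Every BPF library was above every DMSO library, and the day 9 BPF library stood far above the rest (log2 change 5.41 ± 0.83 SE, adjusted p = 0.0011, edgeR quasi-likelihood test as for all genes below). Lox, the enzyme that crosslinks collagen and elastin, was at 0.1, 0.41, 10.47 and 124.69 FPKM in BPF EBs, against 0.08, 0.22, 0.3 and 6.18 FPKM in DMSO EBs. Its BPF level was close to DMSO on days 6 and 9 and far above it on days 12 and 20 (log2 change 4.19 ± 0.37, adjusted p = 9e-05). Lum, a proteoglycan that organises collagen fibrils, was at 0.26, 14.85, 24.3 and 35.5 FPKM with BPF, against 0.22, 2.32, 1.28 and 2.52 FPKM with DMSO. From day 9 on, all BPF libraries were above all DMSO libraries (3.41 ± 0.32, adjusted p = 0.00011).

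Acvrl1, an endothelial receptor of the TGF-beta family, was at 0.25, 3.11, 3.83 and 2.2 FPKM in BPF EBs, against 0.13, 0.33, 0.21 and 0.09 FPKM in DMSO EBs (3.51 ± 0.34, adjusted p = 0.00012). Cd34, a surface protein of endothelial and blood-forming cells, was at 0.37, 17.85, 10.41 and 2.39 FPKM with BPF, against 0.26, 1.58, 0.48 and 0.25 FPKM with DMSO (3.38 ± 0.36, adjusted p = 0.00014). In both genes the day 6 libraries were nearly level and the BPF libraries of days 9 to 20 lay above all DMSO libraries. Foxf2, a forkhead factor of gut and head mesenchyme, was at 0.35, 9.71, 18.11 and 5.6 FPKM with BPF, against 0.23, 1.68, 0.71 and 0.62 FPKM with DMSO (3.14 ± 0.35, adjusted p = 0.00019), and it too was nearly level on day 6. Foxe1, a forkhead factor of thyroid and pharynx, was at 0.17, 5.15, 3.04 and 1.2 FPKM with BPF, against 0.08, 0.34, 0 and 0.19 FPKM with DMSO (3.86 ± 0.61, adjusted p = 0.0013). Its BPF libraries of days 9, 12 and 20 lay above all DMSO libraries.

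Alx1, a homeobox factor of craniofacial mesenchyme, was the gene among the 14 whose highest level came on day 6, at 7.13, 0.74, 0.67 and 0.08 FPKM with BPF, against 0.82, 0, 0.04 and 0.04 FPKM with DMSO (3.24 ± 0.47, adjusted p = 0.0008). Inhba, the activin subunit, was at 0.42, 0.24, 3.62 and 5.87 FPKM with BPF, against 0.18, 0, 0.06 and 0.76 FPKM with DMSO (3.25 ± 0.57, adjusted p = 0.0027), with its highest values late; it lost its call without day 12 (2.58, adjusted p = 0.055). The other 5 of the 14 were the myosin light chain Myl7 and the troponin Tnni1, described with the heart genes, and Cped1, Crispld1 and the basement membrane collagen Col15a1, with log2 changes of 3.38 ± 0.37, 3.28 ± 0.41 and 3.10 ± 0.42. In 3 of the 14 genes (Pax1, Myl7 and Crispld1) every BPF library was above every DMSO library whatever the day, as in 1.15% of all genes tested, while 0.208% had every BPF library below every DMSO library; the choice of genes used the same values. In the others the days ranged more widely than the treatments, and the groups overlapped unless compared day by day.

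The 14 genes that fell furthest included regulators of brain and retina, and their changes were smaller. Epha8, a receptor of ephrin ligands in the developing midbrain, was at 0.25, 0.68, 1.91 and 2.95 FPKM in BPF EBs, against 0.41, 3.42, 8.74 and 6.7 FPKM in DMSO EBs (-1.75 ± 0.27, adjusted p = 0.0011). Fezf1, a zinc finger factor of the forebrain and olfactory system, was at 0.55, 0.84, 0.98 and 0.7 FPKM with BPF, against 1.96, 2.84, 3.84 and 1.31 FPKM with DMSO (-1.67 ± 0.21, adjusted p = 0.00034). For Fezf1 all 4 BPF libraries were below all 4 DMSO libraries, while for Epha8 the groups overlapped across days. Crx, a homeobox factor of photoreceptors, was at 0.95, 3.04, 3.46 and 0.34 FPKM with BPF, against 2.08, 11.32, 11.03 and 0.94 FPKM with DMSO (-1.61 ± 0.24, adjusted p = 0.001), and was lowest on day 20 in both groups.

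Mab21l2, needed in the mouse for eye development, had the highest level of the 14 on days 6 to 12, at 14.62, 17.3, 22.23 and 15.53 FPKM with BPF, against 38.93, 59.49, 52.73 and 28.94 FPKM with DMSO. All BPF libraries were below all DMSO libraries (-1.37 ± 0.14, adjusted p = 0.00014). Its relative Mab21l1 changed by -1.36 ± 0.19 (adjusted p = 0.00066). The bar-class homeobox factors Barhl1 and Barhl2, which act in neuronal subtypes, changed by -1.35 ± 0.19 and -1.37 ± 0.17 (adjusted p = 0.00063 and 0.00032). Barhl2 was at 0.24, 2.53, 4.26 and 5.5 FPKM with BPF, against 0.61, 6.74, 11.84 and 12.52 FPKM with DMSO, and so climbed with the days in both groups. Onecut1, a factor of early neurons and liver, was at 0.15, 2.81, 4.27 and 1.39 FPKM with BPF, against 0.25, 6.86, 13.06 and 2.87 FPKM with DMSO (-1.35 ± 0.22, adjusted p = 0.0019). Without day 12 its call was lost (-1.18, adjusted p = 0.058).

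For some of these genes the difference was small or absent on part of the days. Shox2, a homeobox factor of limb, heart pacemaker and thalamus, changed by -1.61 ± 0.20 and Wfdc1, a secreted protein, by -1.65 ± 0.40 (adjusted p = 0.00034 and 0.018). Wfdc1 was at 0.56, 4.11, 5.29 and 8.09 FPKM with BPF, against 1.69, 15.72, 30.44 and 8.35 FPKM with DMSO, so the groups were nearly level on day 20. Serpina3n, a protease inhibitor of reactive astrocytes with near-identical relatives between which reads could be split, was at 0.04, 0.04, 0.14 and 164.64 FPKM with BPF, against 0.13, 0.27, 0.19 and 462.78 FPKM with DMSO (-1.51 ± 0.18, adjusted p = 0.00022). Pax7, a factor of dorsal neural tube and muscle precursors, the glutamate receptor Grm4 and Luzp2 completed the 14, with log2 changes of -1.39 ± 0.26, -1.37 ± 0.19 and -1.38 ± 0.37. Wfdc1 and Luzp2 lost their calls without day 9 (adjusted p = 0.13 and 0.17) and without day 12 (0.19 and 0.23). They also lost them without any 1 of the BPF and DMSO libraries of those days, with adjusted p-values of 0.054 to 0.09 for Wfdc1 and 0.076 to 0.12 for Luzp2.

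**Figure D1:**
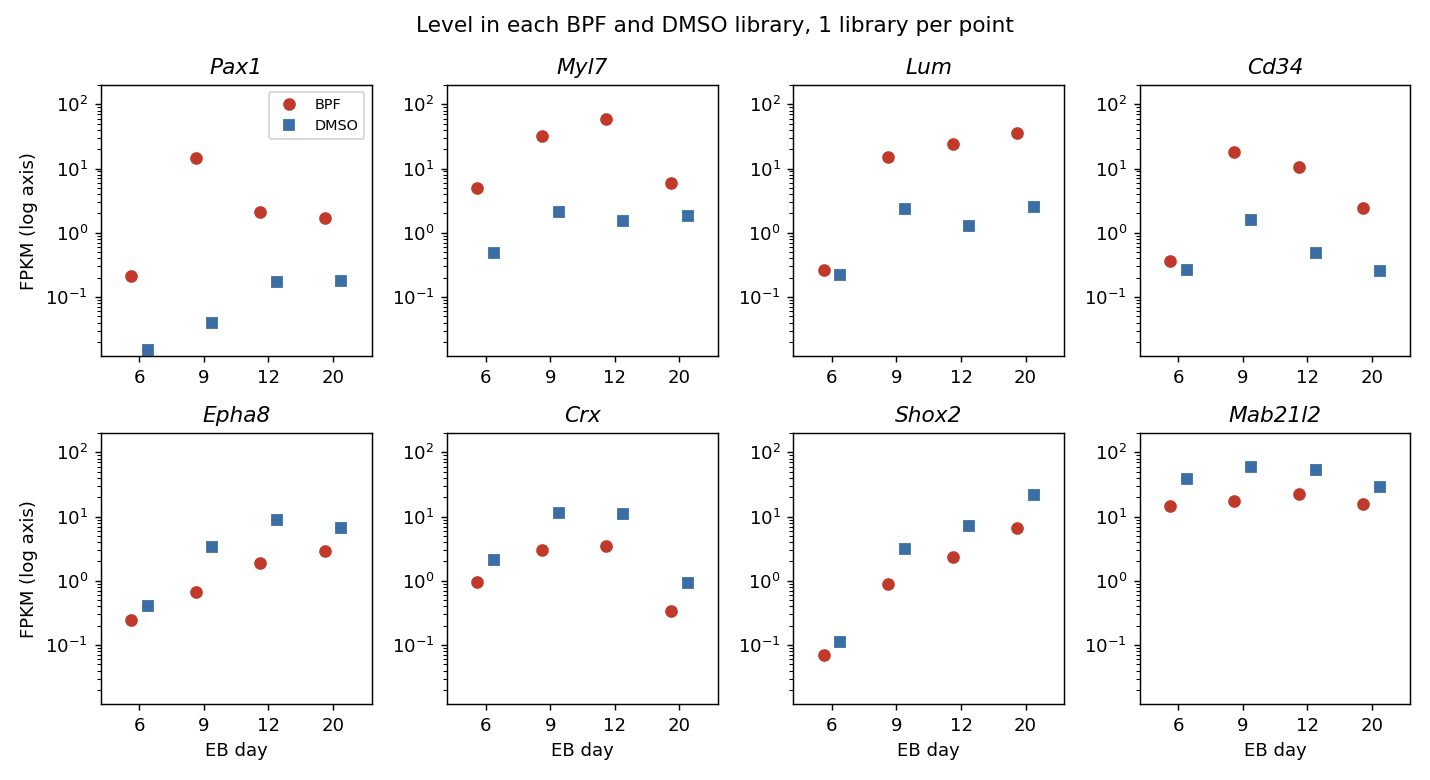
FPKM of 8 named genes on a log axis against EB day, with 1 circle for each BPF library and 1 square for each DMSO library; a level of 0 is drawn at the foot of the axis. Pax1 reaches 14.55 FPKM in the BPF library of day 9, and Mab21l2 stays between 14.62 and 22.23 FPKM in the BPF libraries, below all DMSO libraries.

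Genes were then read in 32 lists of cell types, pathways and receptors, of which 575 members were tested, 55 were below the filter on low counts and 2 were not listed. Counts and medians of each list stand beside those of all genes tested (6.57% higher, 5.94% lower, median log2 change -0.03). List medians kept their sign with the other size factors, which moved the median of all genes to -0.041. List counts depended on days 9 and 12. Of the 94 called genes that were among the 4 furthest changed of their list, 56 stayed called without day 9, 50 without day 12 and 81 by DESeq2, whereas 20 of the 81 with a value did in the 8 BPF and DMSO libraries alone. All that had a value kept their direction. The filter counted libraries of all 4 treatments, so a member near 0 with DMSO could pass it through the bisphenol libraries. The direction of such members is a description.

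Heart muscle genes were read first. Of 20 contractile genes tested, 8 rose and none fell, and the median log2 change was 1.81. The count was 4 without day 9, 4 without day 12, 5 without DMSO of day 12 and 15 without day 6 or DMSO of day 6. Myl7, the atrial myosin light chain, was at 4.95, 31.93, 59.57 and 6.02 FPKM with BPF, against 0.49, 2.1, 1.55 and 1.83 FPKM with DMSO, and each BPF library lay above all DMSO libraries (3.92 ± 0.45, adjusted p = 0.0002). Tnnt2, cardiac troponin T, was at 0.4, 15.57, 23.42 and 13.37 FPKM with BPF, against 1.06, 1.1, 0.09 and 2.03 FPKM with DMSO (3.35 ± 0.72, adjusted p = 0.0088). It was lower with BPF on day 6 and higher on the other days. Tnni1, slow troponin I, was at 2.14, 21.8, 25.85 and 14.09 FPKM with BPF, against 0.78, 3.2, 0.58 and 1.86 FPKM with DMSO (3.17 ± 0.39, adjusted p = 0.00028). The giant sarcomere protein titin (Ttn) also passed (3.43 ± 0.81, adjusted p = 0.015) at levels of 0.09 FPKM or less. Cardiac actin Actc1 did not pass, at 42.62, 55.93, 64.74 and 42.91 FPKM with BPF, against 53.31, 32.26, 3.26 and 2.52 FPKM with DMSO (1.32 ± 0.66, adjusted p = 0.21), and neither did the myosin light chain Myl4 (1.40 ± 0.75, adjusted p = 0.24). In both, the DMSO level was the higher on day 6 and the BPF level on days 9 to 20. The summed level of the contractile list was 118, 217, 279 and 184 FPKM with BPF, against 111, 65.1, 14.8 and 60 FPKM with DMSO, with the DMSO library of day 12 the lowest of the 8.

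Of 24 transcription factors of heart and mesoderm 16 rose and none fell, with a median of 1.81. Without day 12, 10 of 21 rose. Hand1, a factor of heart and extraembryonic mesoderm, was at 4.58, 16.6, 8.09 and 1.44 FPKM with BPF, against 0.93, 2.15, 0.57 and 0.06 FPKM with DMSO (3.04 ± 0.32, adjusted p = 0.00014). The BPF level was the higher on each day. Tbx20, a T-box factor of the heart, was at 1.49, 2.62, 2.22 and 0.79 FPKM with BPF, against 0.13, 0.27, 0.06 and 0.27 FPKM with DMSO (2.91 ± 0.41, adjusted p = 0.00061), and all BPF libraries were above all DMSO libraries. Tcf21, a factor of epicardial and other mesenchyme, and Meox2, a somite factor, passed at log2 changes of 3.73 ± 0.73 and 3.62 ± 0.76 (adjusted p = 0.0053 and 0.0079) from levels of at most 2.76 FPKM. Gata4 did not pass, at 4.21, 5.44, 6.48 and 20.18 FPKM with BPF, against 2.38, 3.15, 1.64 and 23.43 FPKM with DMSO (0.61 ± 0.28, adjusted p = 0.16), nor did Mef2c (0.70 ± 0.34, adjusted p = 0.19).

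Of 22 endothelial genes 10 rose and none fell, with a median of 1.19 and positive estimates for all 22. Without day 9 and without day 12 the count was 3 of 21 each, and in the 8 BPF and DMSO libraries alone it was 0 of 15 by edgeR. Cdh5, the cadherin of endothelial junctions, was at 0.29, 8.73, 4.21 and 3.84 FPKM with BPF, against 0.14, 0.87, 0.24 and 1.01 FPKM with DMSO (2.80 ± 0.34, adjusted p = 0.00028), and was higher with BPF on each day. Icam2, an adhesion molecule, Tie1, an endothelial receptor, and Emcn, an endothelial sialomucin, rose by 4.64 ± 0.58, 3.71 ± 0.47 and 3.41 ± 0.41 on the log2 scale (adjusted p = 0.00031, 0.00034 and 0.00028). Egfl7, the endothelial gene with the highest level, was at 23.31, 14.08, 12.78 and 13.77 FPKM with BPF, against 21.42, 13.22, 9.16 and 13.2 FPKM with DMSO, and did not pass (0.17 ± 0.13, adjusted p = 0.44), nor did the VEGF receptor Flt1 (0.58 ± 0.26, adjusted p = 0.15). The list summed to 48.5, 93.2, 55 and 63.8 FPKM with BPF, against 36.3, 33.3, 19.3 and 59.9 FPKM with DMSO.

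Blood genes were largely below the filter: 11 of 21 were, and 8 were tested. The embryonic globins Hbb-bh1 and Hba-x rose (4.43 ± 0.62, adjusted p = 0.00059, and 4.43 ± 1.10, adjusted p = 0.026). Hbb-bh1 was at 0.16, 8.42, 19.87 and 0.17 FPKM with BPF, against 0.32, 0.16, 0.68 and 0 FPKM with DMSO. Only its BPF libraries of days 9 and 12 stood above 1 FPKM, and globin genes are similar enough that reads could be split between them. No blood gene was called by edgeR without day 9 or without day 12. The higher count was 1 without BPF of day 9 or 12 or DMSO of day 9 or 12, against 5 without day 6. Without DMSO of day 9, 1 blood gene was also called lower. Lmo2 and Tal1, factors of blood and vessel precursors, did not pass, with log2 changes of 0.08 ± 0.14 and -0.51 ± 0.30 (adjusted p = 0.77 and 0.29). The red cell factors Gata1 and Klf1 and the leukocyte marker Ptprc were below the filter.

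Of 16 smooth muscle genes 4 rose and none fell, with a median of 0.99. The count was 12 without day 6, 13 without DMSO of day 6, and 2 without day 12 or day 20. Actg2, a smooth muscle actin, was at 0.69, 1.12, 35.53 and 82.95 FPKM with BPF, against 1.26, 0.56, 0.67 and 7.8 FPKM with DMSO (3.38 ± 0.67, adjusted p = 0.006), so the BPF libraries of days 12 and 20 stood apart. Myocd, the coactivator of smooth and heart muscle genes, rose by 3.01 ± 0.32 and Pdgfrb, a receptor of mural and mesenchymal cells, by 2.03 ± 0.31 (adjusted p = 0.00014 and 0.0011). The most abundant members did not pass over the 4 days: tropomyosin Tpm1 at 0.88 ± 0.36 (adjusted p = 0.12) and the smooth muscle actin Acta2 at 1.08 ± 0.76 (adjusted p = 0.37). Acta2 was at 186.45, 190.96, 352.24 and 340.28 FPKM with BPF, against 370.51, 138.61, 11.26 and 40.96 FPKM with DMSO, and was thus lower with BPF on day 6 and higher on the other days. Skeletal muscle genes were few: of 9 tested, the fetal myosin Myh8 was higher (3.14 ± 0.74, adjusted p = 0.02), Pax7 was lower, and no higher call was left without day 12, day 20 or either library of day 20. Myod1 and Myog were below the filter.

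Of 28 connective tissue matrix genes 17 rose, none fell, all 28 estimates were positive, and the median was 1.52. The count was 9 without day 12. Besides Lox and Lum, the type VI collagen chain Col6a3 rose by 3.64 ± 0.41 and osteoglycin (Ogn) by 3.11 ± 0.66 (adjusted p = 0.0002 and 0.0084). Ogn was at 0.11, 0.11, 2.35 and 41.35 FPKM with BPF, against 0.18, 0.44, 0.19 and 2.5 FPKM with DMSO, which placed the difference on days 12 and 20. Sparc, a collagen-binding glycoprotein, was the most abundant member at up to 984.02 FPKM with BPF and 763.62 FPKM with DMSO and did not pass (0.43 ± 0.25, adjusted p = 0.28). Col1a1, type I collagen, was at 10.85, 18.87, 97.52 and 475.12 FPKM with BPF, against 21.16, 7.1, 5.7 and 34.76 FPKM with DMSO (1.48 ± 0.78, adjusted p = 0.23), again lower with BPF on day 6. The list summed to 457, 690, 1150 and 3440 FPKM with BPF, against 503, 504, 227 and 1080 FPKM with DMSO. In the basement membrane 4 of 14 genes rose and none fell (median 0.39): the laminins Lama2 and Lama4 by 3.12 ± 0.36 and 2.69 ± 0.34, and the nidogens Nid1 and Nid2 by 1.40 ± 0.41 and 0.73 ± 0.17. That count was 2 without day 9, 12 or 20 or BPF of day 12. The type IV collagens Col4a1 and Col4a2 did not pass (0.26 ± 0.26 and 0.18 ± 0.23, adjusted p = 0.55 and 0.66). Of 13 sclerotome and cartilage genes 5 rose and none fell (median 0.50), among them Pax1, the type IX collagen Col9a1 (3.04 ± 0.44), Pax9 (2.54 ± 0.34) and the cartilage link protein Hapln1 (2.50 ± 0.44). The cartilage collagen Col2a1 and its regulator Sox9 did not pass (0.45 ± 0.17 and 0.17 ± 0.14, adjusted p = 0.098 and 0.46).

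Among epithelial genes, 14 of 20 surface ectoderm and keratin genes rose, none fell, and the median was 0.94. The count was 4 without day 9, 4 without day 12, 6 without BPF of day 20, 7 without BPF of day 12 and 8 without BPF of day 6, DMSO of day 12 or the whole of day 20. Krt15, a keratin of basal epithelium, was at 0.16, 0.38, 0.4 and 35.47 FPKM with BPF, against 0.11, 0.49, 0.23 and 3.3 FPKM with DMSO (2.35 ± 0.48, adjusted p = 0.0067), so its difference lay on day 20. Krt5 and Krt14, the keratin pair of basal epidermis, rose by 2.30 ± 0.54 and 2.24 ± 0.67 at levels of 3.3 FPKM or less, and Trp63, the p53 relative that specifies stratified epithelium, by 2.19 ± 0.61 (adjusted p = 0.02, 0.042 and 0.031). Keratins are similar in sequence, so reads could be split between them. The simple epithelial keratins Krt8 and Krt18 had the highest levels and did not pass (0.73 ± 0.29 and 0.70 ± 0.28, adjusted p = 0.11 and 0.12), at 483.51, 141.14, 71.14 and 80.77 FPKM of Krt8 with BPF, against 321.31, 76.46, 17.25 and 75.19 FPKM with DMSO. The BPF level of Krt8 was the higher on each day. In endoderm, 1 of 21 visceral endoderm and liver genes rose and none fell (median 0.83): Foxa1, a pioneer factor of endoderm, at 5.9, 27.36, 25.31 and 21.35 FPKM with BPF, against 1.39, 13.6, 9.19 and 5.02 FPKM with DMSO (1.54 ± 0.16, adjusted p = 0.00014). Alpha-fetoprotein (Afp) was at 1.97, 42.17, 63.18 and 110.4 FPKM with BPF, against 4.84, 7.44, 4.77 and 26.02 FPKM with DMSO, and did not pass (1.91 ± 0.97, adjusted p = 0.22), nor did the retinol carrier Rbp4 (0.36 ± 0.56, adjusted p = 0.72).

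**Figure D2:**
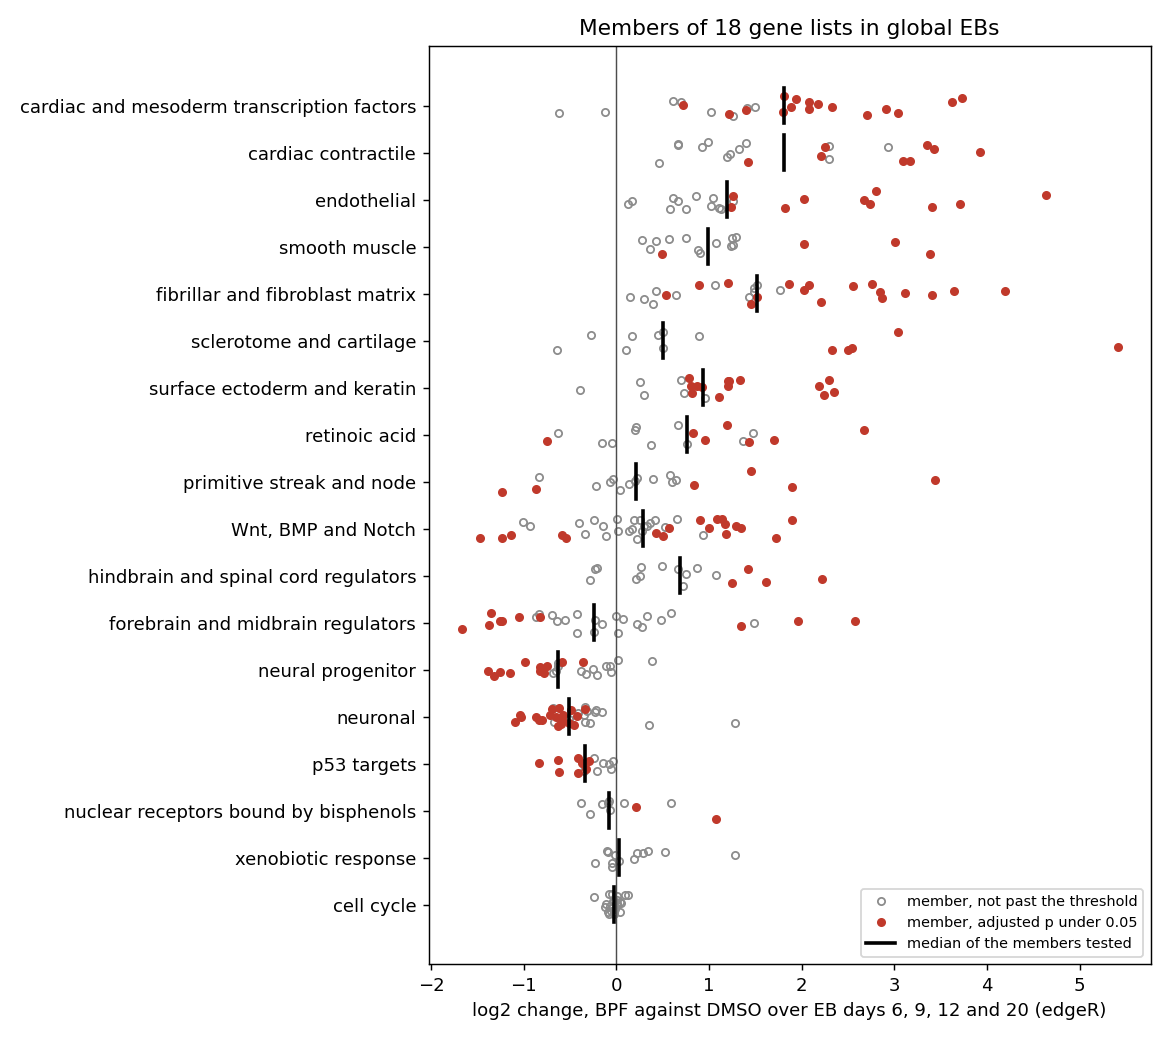
Log2 change of BPF against DMSO over EB days 6, 9, 12 and 20 on the horizontal axis, with 1 point for each member tested of 18 lists, filled where the adjusted p was under 0.05, and the median of each list. The medians of contractile genes and of cardiac and mesoderm factors lie at 1.81, that of neural progenitor genes at -0.63.

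Of 24 neural progenitor genes 11 fell and none rose, with a median of -0.63. The count was 7 without day 9 and 5 without day 12. Pax6, a factor of eye and forebrain progenitors, was at 1.2, 2.01, 7.41 and 5.96 FPKM with BPF, against 4.09, 6.67, 14.41 and 9.34 FPKM with DMSO (-1.26 ± 0.16, adjusted p = 0.00039), and was lower with BPF on each day. Olig2, a factor of motor neuron and oligodendrocyte precursors, changed by -1.32 ± 0.31 and Dbx1, a factor of ventral interneuron progenitors, by -1.15 ± 0.20 (adjusted p = 0.015 and 0.0024). Dbx1 was at 2.66, 12.39, 40.46 and 4.59 FPKM with BPF, against 8.98, 23.68, 110.26 and 4.99 FPKM with DMSO, so the groups were close on day 20. The fatty acid carrier Fabp7 of radial glia did not pass (-0.33 ± 0.22, adjusted p = 0.36). The list summed to 192, 427, 880 and 414 FPKM with BPF, against 248, 602, 1370 and 384 FPKM with DMSO, and was thus lower with BPF on days 6 to 12 and slightly higher on day 20.

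Of 33 neuronal genes 19 fell and none rose, with a median of -0.51. The count was 12 without day 9 and 8 without day 12. Scrt1 and Scrt2, zinc finger repressors of young neurons, changed by -1.09 ± 0.13 and -1.04 ± 0.12 (adjusted p = 0.00028 for each), the splicing factor Rbfox3 (NeuN) by -1.03 ± 0.14 and the zinc finger factor Myt1 by -0.87 ± 0.12 (adjusted p = 0.00051 and 0.00064). Scrt1 was at 0.05, 1.19, 15.31 and 9.97 FPKM with BPF, against 0.07, 2.97, 26.49 and 22.93 FPKM with DMSO. Rbfox3 was at 0.29, 1.94, 4.7 and 15.68 FPKM with BPF, against 0.75, 4.28, 9.25 and 28.28 FPKM with DMSO, and both genes were lower with BPF on each day. The tubulin regulator Stmn2 and the microtubule protein Map2 did not pass (-0.23 ± 0.15 and -0.32 ± 0.12, adjusted p = 0.35 and 0.095). The list summed to 107, 320, 1110 and 2500 FPKM with BPF, against 108, 518, 1530 and 3240 FPKM with DMSO, level on day 6 and lower with BPF later.

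Regional and glial genes were mixed. Of 29 forebrain and midbrain regulators 7 fell and 3 rose (median -0.24), with 1 higher without BPF of day 6 and 6 higher without DMSO of day 6. Nkx2-1, a factor of hypothalamus, lung and thyroid, was at 0.36, 2.55, 2.97 and 5.12 FPKM with BPF, against 0.08, 0.7, 0.57 and 0.33 FPKM with DMSO (2.57 ± 0.34, adjusted p = 0.0004), higher on each day, and Hesx1, a factor of the anterior neural plate and pituitary, rose by 1.96 ± 0.46 (adjusted p = 0.015). Otx2, the most abundant member, was at 105.66, 105.2, 102.56 and 43.7 FPKM with BPF, against 102.67, 133.74, 145.08 and 72.03 FPKM with DMSO (-0.42 ± 0.13, adjusted p = 0.053), and Wnt1, the midbrain signal, was not called either (-0.69 ± 0.27, adjusted p = 0.11). Of 16 hindbrain and spinal cord regulators 4 rose and none fell (median 0.69), all 4 of them Hox genes: Hoxb4 by 2.22 ± 0.34, Hoxa3 by 1.62 ± 0.44, Hoxb3 by 1.42 ± 0.25 and Hoxb2 by 1.25 ± 0.25; 2 were called without day 12. Of 13 glial genes 4 fell and 2 rose (median -0.28). The lower count was 1 without day 9, day 12 or BPF of day 12 and 2 without BPF of day 9 or 20 or DMSO of day 12, and the higher count 1 without day 12, day 20 or either library of day 20. The glutamate transporter Slc1a2 fell by 0.85 ± 0.11 on the log2 scale, and the water channel Aqp4 of astrocytes rose by 0.86 ± 0.18. The astrocyte filament Gfap, at 307.3 FPKM with BPF and 327.64 FPKM with DMSO on day 20, did not pass (-0.15 ± 0.22, adjusted p = 0.71). Of 13 neural crest genes 2 fell, Tfap2b by 1.32 ± 0.26 and Pax3 by 0.82 ± 0.21 on the log2 scale, and none rose (median 0.25). That lower count was 1 without day 6, 9 or 12, without BPF of day 6, 9 or 12 or without DMSO of day 9, and 4 without day 20 or DMSO of day 20. The higher count of this list was 3 without day 6 or DMSO of day 6, 2 without BPF of day 6 and 1 by DESeq2.

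**Figure D3:**
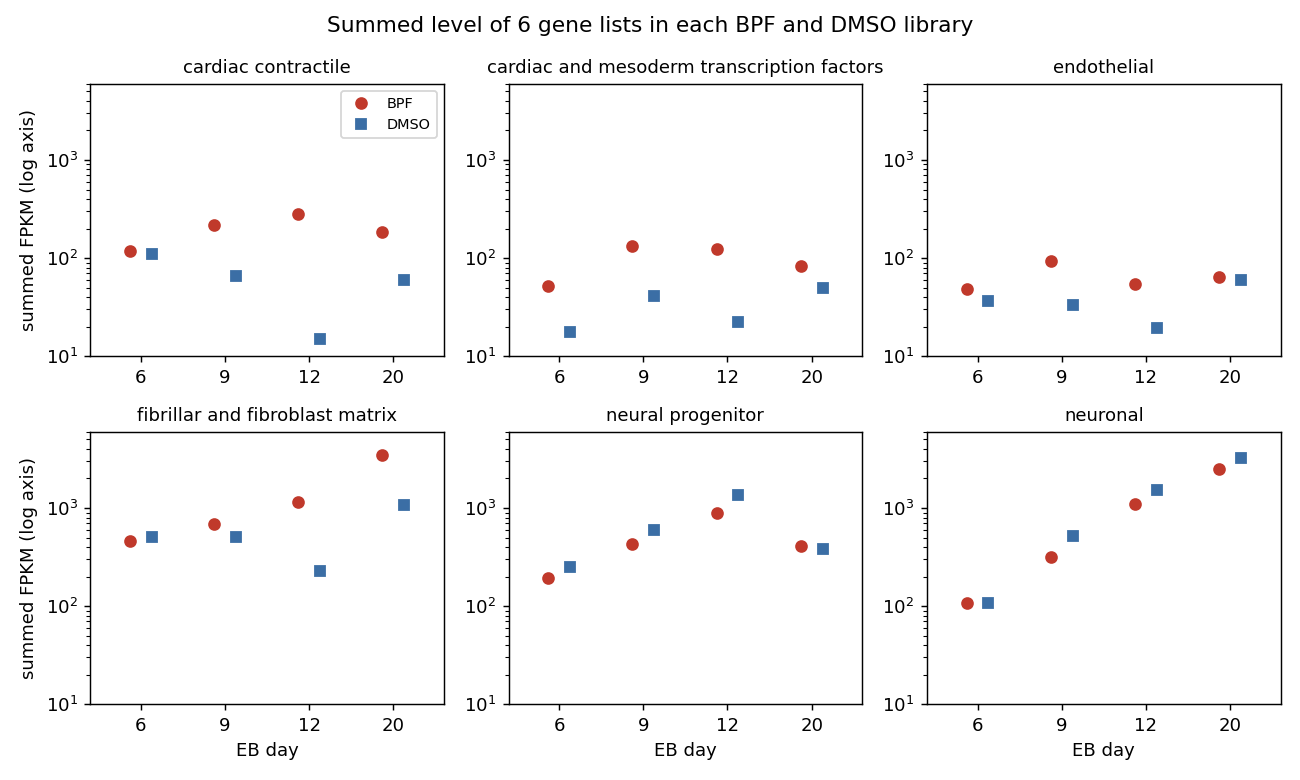
Summed FPKM of the members of 6 lists on a log axis against EB day, with 1 circle for each BPF library and 1 square for each DMSO library. The contractile list stands at 279 FPKM in the BPF library and 14.8 FPKM in the DMSO library of day 12, while the neuronal list stands at 1110 FPKM in that BPF library and 1530 FPKM in that DMSO library.

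Some primitive streak genes and some pluripotency genes rose and others fell, beside 6.57% higher and 5.94% lower of all genes tested. Of 18 primitive streak and node genes 4 rose and 2 fell (median 0.21), with none lower by edgeR without day 9, day 12, BPF of day 9 or 12 or DMSO of day 12, and 1 lower without BPF of day 6 or 20 or DMSO of day 9. Cer1, a secreted antagonist of Nodal, BMP and Wnt signals, was at 114.28, 1.7, 0.21 and 0.06 FPKM with BPF, against 10.17, 0.23, 0 and 0.19 FPKM with DMSO (3.44 ± 0.34, adjusted p = 0.00012). The day 6 libraries carried nearly all of its RNA. Brachyury (T), the mesoderm factor, was at 55.78, 21.23, 5.72 and 0.15 FPKM with BPF, against 10.33, 8.13, 1.3 and 0.26 FPKM with DMSO (1.89 ± 0.28, adjusted p = 0.00095), higher with BPF on days 6 to 12. Sonic hedgehog (Shh), a signal of notochord and floor plate, was at 22.4, 62.79, 27.1 and 4.22 FPKM with BPF, against 4.74, 32.13, 9.5 and 1.49 FPKM with DMSO (1.45 ± 0.19, adjusted p = 0.00039), and was higher on each day. Wnt3a changed by -1.23 ± 0.37 (adjusted p = 0.046), and the BMP antagonist Nog and the factor Lhx1 did not pass (0.14 ± 0.12 and 0.20 ± 0.54, adjusted p = 0.5 and 0.85). Of 15 naive pluripotency genes Tbx3 rose (0.72 ± 0.18, adjusted p = 0.02) and none fell (median -0.12); none was higher by edgeR without day 9 or 12 or any BPF or DMSO library of those days. Of 17 core and formative genes 1 rose and 2 fell, and the median was -0.11. The gene that rose was Fgf5, the growth factor of the primed epiblast (1.25 ± 0.31, adjusted p = 0.02), and Sox2 was among those that fell (by 0.36 ± 0.07 on the log2 scale). DESeq2 called 0 of these genes higher and 4 lower. No member was higher by edgeR without day 6, 9 or 12, without BPF or DMSO of day 6 or without BPF or DMSO of day 9, and 3 were without day 20 or DMSO of day 20. The lower calls numbered 1 without day 12, 4 without day 6 and 5 without DMSO of day 6.

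Signalling genes moved in both directions. Of 40 Wnt, BMP and Notch genes 13 rose and 5 fell (median 0.29), against 6 and 1 without day 9 and 6 and 2 without day 12. Without BPF of day 12, 7 rose and 3 fell; 2 fell without BPF of day 9, 3 without BPF of day 6 and 8 without day 20 or DMSO of day 20. The Wnt inhibitors Dkk2 and Dkk1 rose by 1.89 ± 0.43 and 1.34 ± 0.26, the Notch target Heyl rose by 1.72 ± 0.20, and the forebrain ligand Wnt8b fell by 1.47 ± 0.35 on the log2 scale (adjusted p = 0.013, 0.0054, 0.00021 and 0.015). Dkk1 was at 53.6, 37.33, 6.63 and 1.61 FPKM with BPF, against 20.38, 16.35, 0.83 and 1.78 FPKM with DMSO, and so was higher with BPF until day 12. The BMP targets Id1 and Id3 did not pass (0.19 ± 0.12 and 0.02 ± 0.15, adjusted p = 0.3 and 0.96). Of 17 retinoic acid genes 6 rose and 1 fell (median 0.76), with 1 higher without day 12, 2 without day 9 or BPF of day 12 and 3 without day 20 or either library of day 20: the synthesising enzyme Aldh1a1 rose by 2.67 ± 0.63, the receptor Rarb by 1.70 ± 0.33 and the degrading enzyme Cyp26a1 by 1.43 ± 0.37. Cyp26a1 was at 70.17, 12.86, 3.54 and 7.48 FPKM with BPF, against 12.32, 3.54, 0.72 and 9.25 FPKM with DMSO. Rarb was at 1.36, 8.84, 13.79 and 9.22 FPKM with BPF, against 1.15, 1.95, 2.05 and 3.71 FPKM with DMSO, higher with BPF on each day, whereas Cyp26a1 was lower on day 20. The retinoic acid list summed to 311, 454, 374 and 179 FPKM with BPF, against 382, 830, 565 and 85.6 FPKM with DMSO. That sum was thus lower with BPF on days 6 to 12 and higher on day 20. Of 18 immediate early genes the zinc finger factors Egr1 and Egr3 rose (1.19 ± 0.21 and 1.36 ± 0.37, adjusted p = 0.0032 and 0.031), as did Ier2 (0.28 ± 0.08, adjusted p = 0.03), and none fell (median 0.34). The count was 1 without day 6, day 12, BPF of day 6 or 12 or DMSO of day 9 or 12, and 5 without DMSO of day 6.

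Receptors through which bisphenols are known to act were read by the level of their RNA only. Of 10 receptor and partner genes tested 2 rose and none fell (median -0.08), beside 6.57% higher and 5.94% lower of all genes tested. The aryl hydrocarbon receptor Ahr was at 2.01, 3.46, 3.03 and 3.1 FPKM with BPF, against 2.27, 1.36, 0.55 and 1.22 FPKM with DMSO (1.07 ± 0.29, adjusted p = 0.03), level on day 6 and higher with BPF from day 9. Its partner Arnt rose by 0.21 ± 0.06 (adjusted p = 0.039). Neither stayed called without day 9, 12 or 20, or without any 1 BPF or DMSO library of those days. The thyroid hormone receptor Thra and the orphan receptor Esrra did not pass (-0.16 ± 0.10 and -0.09 ± 0.14, adjusted p = 0.31 and 0.73), and the oestrogen receptor Esr1, Pparg, Nr1i2 and Nr1i3 were below the filter. None of 13 xenobiotic response genes passed by edgeR (median 0.03; 2 at an unadjusted p under 0.05 and 0 by DESeq2), including the cystine transporter Slc7a11 (-0.09 ± 0.08, adjusted p = 0.48) and the glutathione transferase Gsta4 (0.22 ± 0.13, adjusted p = 0.29). Of 14 oestrogen response genes 3 rose and 1 fell (median 0.24). By edgeR none was called without day 12, 1 rose and none fell without BPF of day 12, 1 rose and 1 fell without BPF of day 20 or DMSO of day 12, none fell without day 9, and 5 rose without day 6 or DMSO of day 6. Of the members, the keratin Krt19, the growth factor binding protein Igfbp4 and the stress factor Xbp1 rose by 0.92 ± 0.24, 0.90 ± 0.16 and 0.29 ± 0.08, and the endocytic receptor Lrp2 fell by 0.59 ± 0.13 on the log2 scale. Ctsd and Ccnd1, classical targets in breast cells, did not pass (0.18 ± 0.09 and -0.43 ± 0.16, adjusted p = 0.19 and 0.091).

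Of 16 genes of the p53 response 8 fell, none rose, all 16 estimates were negative, and the median was -0.34. The count was 1 without day 9, 4 without day 12 or BPF of day 9, 5 without day 6, BPF of day 6 or 12 or DMSO of day 9 or 12, and 12 without DMSO of day 20. The death genes Pmaip1 and Bbc3 fell by 0.84 ± 0.18 and 0.62 ± 0.14, the stress sensor Sesn2 by 0.63 ± 0.14 and the receptor Eda2r by 0.41 ± 0.09 on the log2 scale (adjusted p = 0.0087, 0.013, 0.0099 and 0.0096). Pmaip1 was at 11.49, 5.54, 4.8 and 4.22 FPKM with BPF, against 17.78, 15.23, 8.21 and 5.22 FPKM with DMSO, lower with BPF on each day. The cell cycle inhibitor Cdkn1a and Bax did not pass (-0.35 ± 0.16 and -0.08 ± 0.09, adjusted p = 0.16 and 0.57), and Cdkn1a was higher with BPF on day 20, at 215.14 FPKM against 169.18 FPKM with DMSO. By edgeR none of 24 cell cycle genes passed (median -0.03; 0 at an unadjusted p under 0.05 and 0 by DESeq2), with Pcna at -0.07 ± 0.08 and Top2a at -0.01 ± 0.09 (adjusted p = 0.6 and 0.98). None of 19 glycolysis and hypoxia genes passed by edgeR (median 0.09; 3 at an unadjusted p under 0.05 and 1 by DESeq2, the collagen prolyl hydroxylase P4ha1, with a log2 change of 0.37 and an adjusted p of 0.046, named after its values were seen), and of 19 cholesterol synthesis genes 1 fell, the regulator Srebf2 (by 0.21 ± 0.05 on the log2 scale). The cholesterol count was 9 without DMSO of day 6, 5 without day 6, 2 without DMSO of day 20 and 0 by edgeR without day 9 or 12, BPF of day 9, 12 or 20 or DMSO of day 9 or 12. Of 19 stress response genes 3 rose and 2 fell (median -0.09). By edgeR none was called without day 9 or day 12, and none rose without BPF of day 9, 12 or 20 or DMSO of day 12. Without day 20 or DMSO of day 9, 1 rose, while 1 fell without day 20, BPF of day 12 or 20 or DMSO of day 12, and 4 fell without day 6 or DMSO of day 6. The endoplasmic reticulum chaperones Hspa5 and Pdia4 rose by 0.32 ± 0.09 and 0.31 ± 0.08, and the serine synthesis enzyme Psat1 and Sesn2 fell. Of 20 imprinted genes 4 rose and 1 fell (median 0.19). The growth factor Igf2 was at 208.27, 624.85, 541.45 and 1146.56 FPKM with BPF, against 166.6, 353.37, 125.52 and 348.44 FPKM with DMSO (1.18 ± 0.23, adjusted p = 0.0059), higher on each day, while the noncoding RNA Meg3 changed by -1.03 ± 0.29 (adjusted p = 0.033). No imprinted gene was lower by edgeR without day 12 or 20, BPF of day 9, or either library of day 12 or 20.

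On single days, where there is no test, more genes were higher with BPF on days 12 and 20 than on days 6 and 9. With called meaning a difference of 1 or more in log2(FPKM + 1), which understates the change of low genes, 130 genes were higher (0.874%) and 40 lower (0.269%) on day 6. On day 9, 248 were higher (1.67%) and 93 lower (0.625%). On day 12, 591 were higher (3.97%) and 85 lower (0.572%), and on day 20, 623 were higher (4.19%) and 61 lower (0.41%). Day 6 was led by Cer1, by Lhx1, a factor of anterior mesendoderm, at 12.54 FPKM with BPF and 0.70 FPKM with DMSO, and by Cfc1, a Nodal coreceptor, at 17.76 FPKM with BPF and 1.45 FPKM with DMSO. The forebrain factor Fezf2 was at 0.67 FPKM with BPF and 5.06 FPKM with DMSO on that day. Day 9 was led by Pax1, by the apolipoprotein Apoc2 (28.31 FPKM with BPF and 1.66 FPKM with DMSO), Myl7 and Vgll2 (12.59 FPKM with BPF and 0.45 FPKM with DMSO), with Rspo2, a Wnt agonist, at 3.15 FPKM with BPF and 15.28 FPKM with DMSO at the other end. Day 12 was led by smooth and heart muscle genes: Acta2, Myl7, Tagln (190.50 FPKM with BPF and 7.19 FPKM with DMSO) and Tnnt2. On day 20 Lox and Igfbp7 (101.09 FPKM with BPF and 5.97 FPKM with DMSO) were among the highest and the lens gene Cryaa and the factor Tfap2d (3.75 FPKM with BPF and 16.27 FPKM with DMSO) among the lowest. Mir686, H2ac13, Tmem254b, Cers1 and Gdf1 also reached these extremes. Such genes can share reads with similar copies or with an overlapping neighbour, as Cers1 and Gdf1 do, and since strand use in the counting is not given in the sources used here, their values are uncertain.

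The BPF effect of days 12 and 20 was compared with that of days 6 and 9 in the same 16 libraries. It differed for 140 genes, with 125 more positive late (0.841%) and 15 more negative (0.101%). Connective tissue genes led. Postn, a matrix protein of mesenchyme, was at 11.15, 76.46, 70.46 and 129.01 FPKM with BPF, against 37.3, 165.76, 11.65 and 16.52 FPKM with DMSO. It was lower with BPF on days 6 and 9 and higher on days 12 and 20, so its effect differed by 4.17 ± 0.22 (adjusted p = 1e-05) while its change over all days was not called (0.15, adjusted p = 0.91). The type VIII collagens Col8a1 and Col8a2, the protease Htra1 and the matricellular protein Ccn4 differed by 3.99 ± 0.23, 3.64 ± 0.35, 2.78 ± 0.25 and 3.68 ± 0.36. Of 28 matrix genes 10 were more positive late, and of 16 smooth muscle genes 8 were (list medians 2.0 and 2.58). In the other direction stood Samd3 (-3.49 ± 0.55, adjusted p = 0.016), at 23.86, 6.71, 1.63 and 0.45 FPKM with BPF, against 2.5, 1.88, 2.23 and 1.22 FPKM with DMSO, along with Snhg11 (-1.81 ± 0.26), Wsb1 (-1.32 ± 0.20), Leng8 (-1.12 ± 0.15) and Clip2 (-0.75 ± 0.13). This count was 7 without day 6, 305 without day 12 and 21 without day 20.

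In RA EBs and NPCs, 0 of 15632 genes were called between BPF and DMSO (0.0%, edgeR; 1257 at an unadjusted p under 0.05 and 10 by DESeq2), and in ESCs and EBs of day 4 likewise 0 (0.0%; 262 at an unadjusted p under 0.05 and 1 by DESeq2, Il4i1, named after its values were seen). The difference between the effect of BPF in global EBs and in RA EBs and NPCs passed for 564 genes in the positive direction (3.61%) and 439 in the negative direction (2.81%). Of 28 matrix genes 18 were more positive in global EBs, with a median difference of 2.89, and of 24 cardiac and mesoderm factors 10 were. Lox, at 0.1 FPKM in RA EBs and 1.44 FPKM in NPCs with BPF, against 0.13 and 4.38 FPKM with DMSO, differed by 5.66 ± 0.58 (adjusted p = 6.2e-05). Ddr2, a collagen receptor, Smoc2, a matricellular protein, Prrx1, a factor of limb and head mesenchyme, and Sparcl1 differed by 4.51 ± 0.55, 3.53 ± 0.41, 2.76 ± 0.33 and 1.94 ± 0.23. The BPF effect on 7 of 24 neural progenitor and 12 of 33 neuronal genes was more negative in global EBs. Pax6 was at 50.93 FPKM in RA EBs and 18.76 FPKM in NPCs with BPF, against 49.22 and 12.78 FPKM with DMSO, and differed by -1.55 ± 0.22 (adjusted p = 0.00065). The factors Onecut1 and Onecut2 differed by -2.09 ± 0.29 and -1.74 ± 0.25, the neuronal kinesin Kif5c by -0.82 ± 0.09 and Stox2 by -0.81 ± 0.11. The count of 1003 was 462 without day 12.

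Against ESCs and EBs of day 4, the effect differed for 13 genes (0.0832%), 9 more positive and 4 more negative. The 5 more positive genes with the smallest p were Acvrl1 (4.56 ± 0.70), Ddr2 (3.61 ± 0.59), Smoc2 (4.33 ± 0.76), the imprinted zinc finger gene Peg3 (1.18 ± 0.21) and Cd34 (4.84 ± 0.89). Acvrl1, Smoc2 and Cd34 were at 0.59 FPKM or less in the BPF and DMSO libraries of ESCs and EB day 4. Their log2 changes there were -1.07, -1.62 and -1.48, none of them called, and these uncertain values enter the differences. Peg3 was at 113.96, 147.16, 89.68 and 97.51 FPKM in BPF EBs of days 6 to 20, against 59.26, 83.44, 34.83 and 60.34 FPKM in DMSO EBs, and at 5.78 FPKM in BPF ESCs and 6.14 FPKM in DMSO ESCs. The 4 more negative genes were Dnajb5 (-0.69 ± 0.12), Ankrd13b (-1.14 ± 0.20), Ppp1r1a (-0.64 ± 0.12) and Kif5c (-0.54 ± 0.10). This count was 254 without day 6, 0 without day 9, 0 without day 12 and 84 without day 20.

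**Figure D4:**
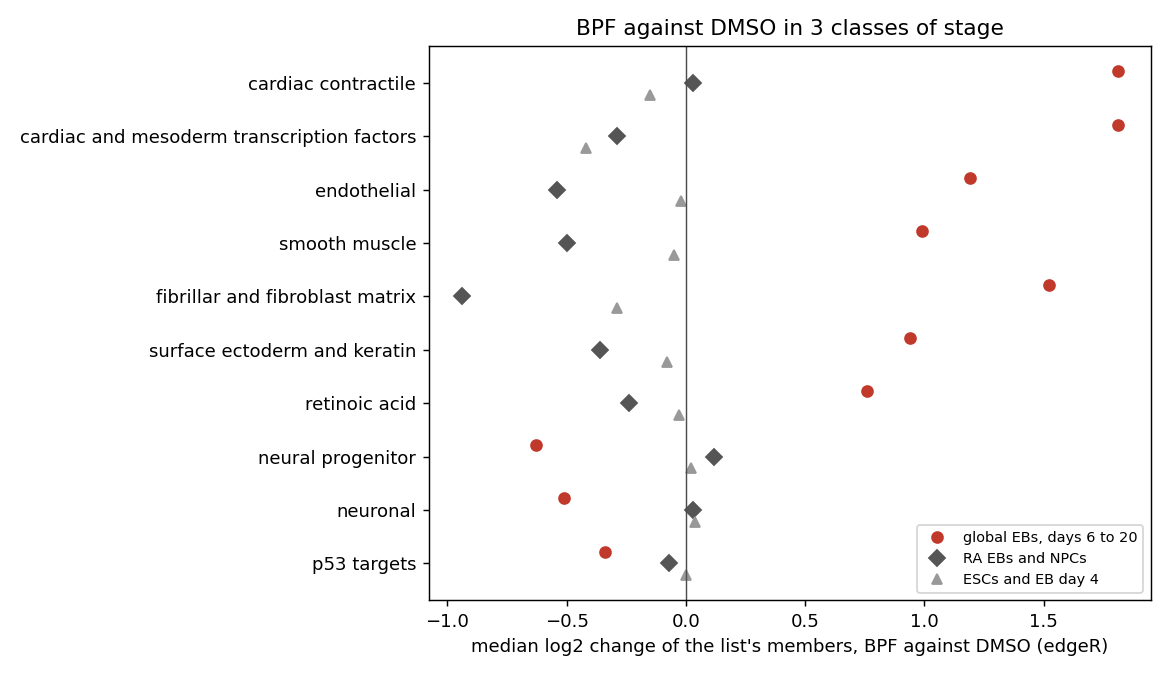
Median log2 change of BPF against DMSO of 10 gene lists in 3 classes of stage: global EBs (from the fit to 16 libraries), RA EBs with NPCs, and ESCs with EBs of day 4 (both from the fit to all 32 libraries). The matrix list lies at 1.52 in global EBs and at -0.94 in RA EBs with NPCs.

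BPF was compared with BPA and with BPS at the same dose and on the same days. Both pairs share the BPF libraries. No gene was called in either pair by edgeR, with 0 of 14872 between BPF and BPA (0.0%; 688 at an unadjusted p under 0.05, lowest adjusted p 0.377) and 0 between BPF and BPS (0.0%; 286 at an unadjusted p under 0.05, lowest adjusted p 1.0). Adjusted over both of the 2 pairs together, the lowest p was 0.754. The 95% interval of the difference had a median half-width of 0.3 on the log2 scale over the 1861 genes called against DMSO. It lay within 1 of 0 for 1531 of them against BPA and for 1645 against BPS and reached beyond 1 for the others. DESeq2 called 3 genes between BPF and BPA, all higher with BPF: Hand1 (1.62, adjusted p = 0.0038), Myl7 (2.02, adjusted p = 0.011) and Tnni1 (1.78, adjusted p = 0.039), named after their values were seen.

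Heart genes and the embryonic globin Hbb-bh1 are given for all 3 compounds. They were among the genes with the smallest p against BPA, so the intervals, which do not allow for that choice, are a description. Hand1 and Hbb-bh1 had an adjusted p of 0.38 against BPA by edgeR, and neither was called against BPS. Myl7 was at 4.95, 31.93, 59.57 and 6.02 FPKM with BPF, at 0.96, 8.55, 15.68 and 1.43 FPKM with BPA and at 4.68, 60.69, 141.35 and 27.04 FPKM with BPS. The BPF level was above BPA on each day (log2 difference 1.96, interval 1.21 to 2.71, edgeR adjusted p = 0.38) and below BPS from day 9 on (-1.15, interval -1.78 to -0.51, adjusted p = 1). Hand1 was at 4.58, 16.6, 8.09 and 1.44 FPKM with BPF, at 0.92, 4.97, 3.91 and 0.49 FPKM with BPA and at 6.83, 20.64, 13.49 and 0.92 FPKM with BPS (BPF minus BPA 1.61, interval 1.02 to 2.21). Hbb-bh1 was at 0.16, 8.42, 19.87 and 0.17 FPKM with BPF, at 0.16, 2.06, 1.5 and 0 FPKM with BPA and at 0.79, 35.48, 67.46 and 0 FPKM with BPS, between which BPF was intermediate on days 9 and 12 (BPF minus BPA 2.78, interval 1.69 to 3.87; BPF minus BPS -1.81, interval -2.62 to -1.01). Over the contractile list the median difference was 1.06 from BPA and -0.80 from BPS, over visceral endoderm and liver genes 1.09 from BPA and 0.20 from BPS, and over cardiac and mesoderm factors 0.63 from BPA and -0.37 from BPS, against -0.01 and 0 over all genes tested. Neuronal genes had medians of -0.24 from BPA and 0.04 from BPS, and matrix genes 0.16 from BPA and 0 from BPS. Among the 10 genes with the smallest p in each pair stood also Plet1 (1.14) and Matk (-0.98) from BPA, and Tmem254c (-2.85) and the placental hormone gene Prl3b1 (-1.37) from BPS, none past the threshold. Tmem254b and Tmem254c are near-identical copies whose reads could be split.

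Against DMSO itself, BPA gave 568 called genes (3.82%) and BPS 2190 (14.7%), beside the 1861 of BPF. The 3 comparisons share the 4 DMSO libraries, so their values stand side by side only. The contractile list had a median of 1.81 with BPF (8 of 20 higher), 0.61 with BPA (1 higher) and 2.62 with BPS (14 higher). The matrix list had medians of 1.52 with BPF, 1.46 with BPA and 1.55 with BPS, and the neuronal list medians of -0.51 with BPF, -0.27 with BPA and -0.51 with BPS. On single days 27, 48, 57 and 77 genes differed between BPF and BPA by 1 or more in log2(FPKM + 1), and 23, 41, 59 and 41 between BPF and BPS, for days 6, 9, 12 and 20.

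**Figure D5:**
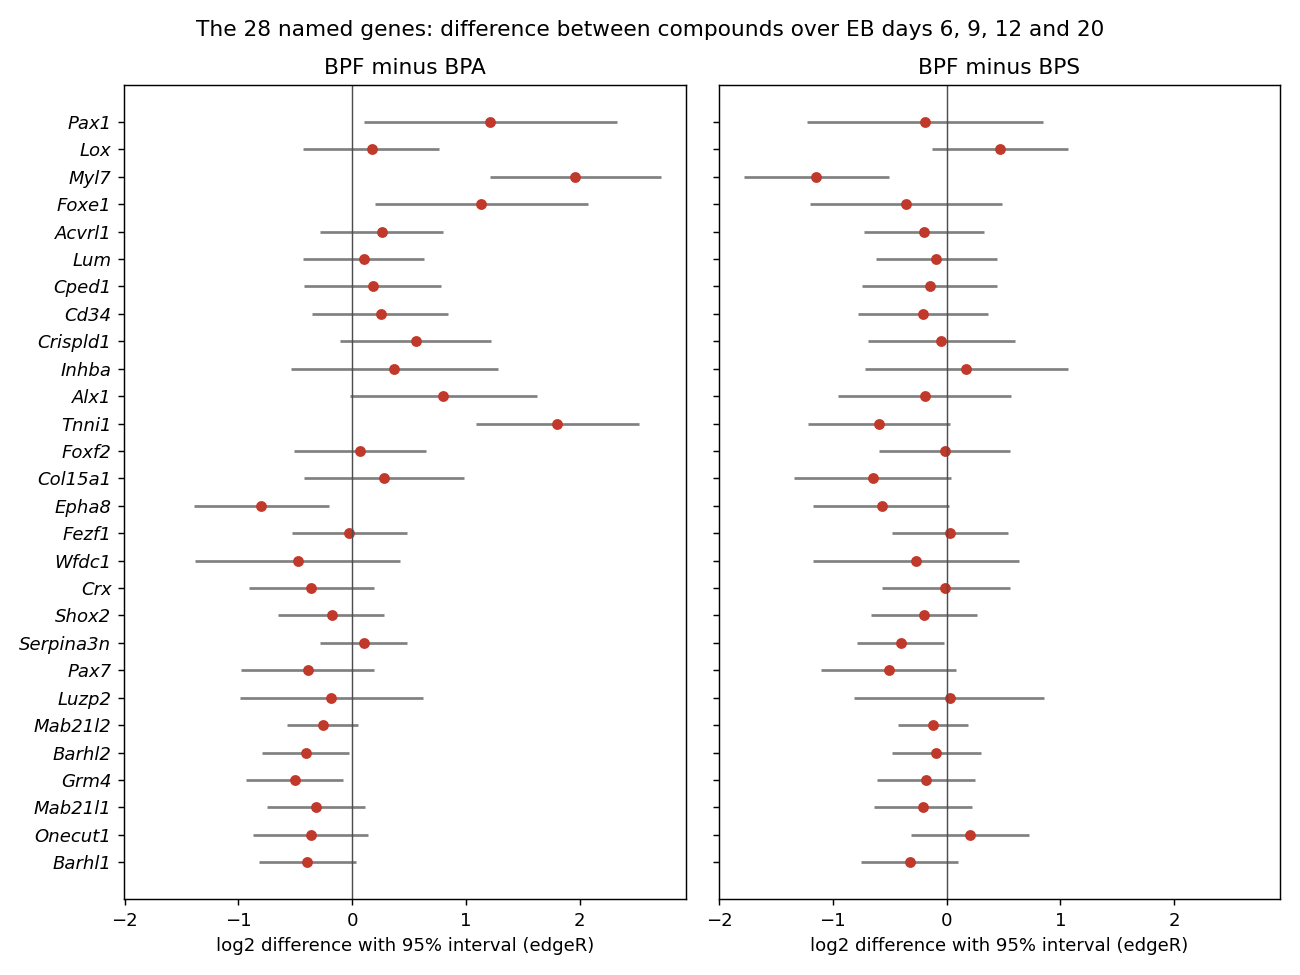
Log2 difference of BPF from BPA and of BPF from BPS over EB days 6, 9, 12 and 20 for the 28 named genes, as points with 95% intervals (edgeR). The Myl7 interval runs from 1.21 to 2.71 against BPA and from -1.78 to -0.51 against BPS, and since the genes were chosen by their BPF and DMSO levels the points are a description.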

How the data were processed

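Total RNA (Trizol, then RNeasy Plus columns) was made into libraries at BGI, per the labels. The authors deposited, for each library and gene, an expected count (estimated reads, not normalised) and an FPKM value. The tools Bowtie2, HISAT and RSEM and the genome build mm10 appear in the submitters' processing notes without roles or versions. Between 78.8% and 80.5% of the expected counts of a library were whole numbers (no tolerance). A gene not listed in a library was set to 0. RefSeq names (GRCm38.p6) were found by Entrez identifier for 20551 of the 20612 genes, by transcript for 9 and not for 52.

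Rounding to whole numbers preceded the tests in edgeR 4.0.16 (R 4.3.3). Genes with at least 1 CPM in at least 4 libraries of a fit were kept. Library sizes were scaled by TMM factors (0.926 to 1.075 in global EBs). A quasi-likelihood model with terms for day and treatment was fitted to the 16 global EB libraries of all 4 treatments (9 residual degrees of freedom), so that the treatments were paired by day. Later and earlier days were compared with a further term (6 residual degrees of freedom), and classes of stage in a fit to all 32 libraries (15). A gene was called where its p, adjusted over all genes tested by the Benjamini-Hochberg method, was under 0.05. Each SE was calculated back from the F statistic of its test, and the confidence level of all intervals was 95%. The prior count of 1 applied to the log2 CPM values of single days and not to the fitted log2 changes. Single days were described from the deposited FPKM values as log2(FPKM + 1).

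The gene lists and comparisons were chosen with earlier results of these data known. The 28 named genes are the 14 most raised and the 14 most lowered among those called, averaging at least 2 FPKM in BPF or DMSO and with the same sign on all days. From a list, up to 4 called members with the largest change and up to 2 not called with the highest FPKM were named. For other comparisons, the 5 called genes in each direction with the smallest p and at least 2 FPKM were named, and for single days the 4 highest and 4 lowest differences. Alternatives were DESeq2 1.42.0, limma 3.58.1 on log2(FPKM + 1) and log2(FPKM + 0.1), relative log expression (RLE) size factors, other filters, other sets of libraries and leaving out libraries or days. The main edgeR fits (day and treatment, later days, classes of stage) were tried on simulated counts with a single fixed spread, and the alternatives were not. Some genes of the lists are not reported here by name.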

Additional observations from a re-analysis of the deposited data

Results flagged for a closer look

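Each result here was singled out because the effect of BPF differed between classes of samples by a test of that difference (edgeR, adjusted p under 0.05).

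Between EB days 12 and 20 and EB days 6 and 9 the BPF effect differed for 140 genes. The differences of the named genes were 4.17 for Postn, 3.99 for Col8a1, 2.78 for Htra1, 3.64 for Col8a2 and 3.68 for Ccn4 on the log2 scale, and -1.12 for Leng8, -1.81 for Snhg11, -1.32 for Wsb1, -3.49 for Samd3 and -0.75 for Clip2. Wsb1 was at 14.58, 16.57, 16.18 and 28.44 FPKM with BPF on days 6, 9, 12 and 20, against 11.4, 12.29, 29.29 and 54.96 FPKM with DMSO, so its DMSO libraries of days 12 and 20 were the high ones.

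Between global EBs and the RA EBs with NPCs the BPF effect differed for 1003 genes. The differences were 5.66 for Lox, 3.53 for Smoc2, 1.94 for Sparcl1, 4.51 for Ddr2 and 2.76 for Prrx1, and -0.82 for Kif5c, -0.81 for Stox2, -2.09 for Onecut1, -1.74 for Onecut2 and -1.55 for Pax6. In the neural branch Onecut1 was at 9.37 FPKM in RA EBs and 22.21 FPKM in NPCs with BPF, against 7.02 FPKM in RA EBs and 11.97 FPKM in NPCs with DMSO. Onecut1 was thus lower with BPF in global EBs and higher with BPF in the neural branch. The change in the neural branch was not called (log2 change 0.71 ± 0.21, adjusted p = 0.41, edgeR).

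Between global EBs and the ESCs with EBs of day 4 the BPF effect differed for 13 genes. The differences were 4.56 for Acvrl1, 3.61 for Ddr2, 4.33 for Smoc2, 1.18 for Peg3 and 4.84 for Cd34, and -0.69 for Dnajb5, -1.14 for Ankrd13b, -0.64 for Ppp1r1a and -0.54 for Kif5c. Acvrl1, Smoc2 and Cd34 were at 0.59 FPKM or less in the BPF and DMSO libraries of ESCs and EB day 4, so their differences are imprecise.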

How the results depend on the processing

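With 1 library for each treatment and day, and with the spread estimated from the departure of treatments from parallel courses over the days, the number of called genes depended on which libraries entered. Of the 1861 genes called between BPF and DMSO, 1691 were also called by DESeq2 and 1819 in the fit to all 32 libraries. The 28 named genes stayed called with DESeq2, RLE size factors, all 32 libraries, no filter and limma on log2(FPKM + 0.1). With limma on log2(FPKM + 1) 22 did, without day 12 24, and with the 8 libraries alone 17, where 7 more kept their direction only. No named gene changed direction under any setting that gave it a value. Low levels limit precision: Ttn passed at 0.09 FPKM or less.

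The day paired the treatments, as the labels give each treatment the same days. The 8 BPF and DMSO libraries alone gave 141 calls with this pairing, and the same 8 without it (no replicate block) gave 0 by edgeR, with 294 at an unadjusted p under 0.05; the 16 libraries were not fitted without the pairing. Leaving out single libraries or days gave 554 to 2780 calls for BPF against DMSO. For BPF against BPA it gave 0 to 1 calls (Tnni1, without DMSO of day 12), and DESeq2 gave 3. For BPF against BPS it gave 0 to 2 (Tmem254b higher and Tmem254c lower, without day 20; both named after their values were seen). For later against earlier days DESeq2 gave 277 calls and leaving out a day 7 to 305. For global EBs against the neural branch, leaving out a day gave 462 to 1456. For global EBs against ESCs with EBs of day 4, DESeq2 gave 78, no filter 34 and leaving out a day 0 to 254.

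On single days the count depended on the scale. A difference of 2 in log2(FPKM + 1) left 20, 28, 130 and 135 genes on days 6, 9, 12 and 20. Log2(FPKM + 0.1) gave 431, 673, 1122 and 1070, and log2 CPM gave 746, 1001, 1569 and 1449. The 32 list medians kept their sign under DESeq2, RLE size factors, all 32 libraries, the 8 libraries alone and no filter; 1 changed sign at 5 CPM, 1 in the 8 libraries without the pairing, 2 under each limma fit, and 0 to 4 when a library or day was left out (4 without day 20). The causes of these shifts were not tested.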
